A study of Mus musculus with 2 samples.

Results

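The adult globin genes of the mouse are the alpha-globin genes *Hba-a1* and *Hba-a2* and the beta-globin genes *Hbb-bs* and *Hbb-bt*. They were taken by name from the count tables of 2 bone marrow samples, and they make up 4 of the 7181 genes listed for the wild type (WT) and 4 of the 6735 listed for the mutant (Cko). All 4 were listed in both samples. Of all transcript counts they held 16.7% in the WT and 6.36% in the mutant.

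Hemoglobin is a tetramer of alpha-like and beta-like chains, each carrying a heme group, and a red cell precursor fills its cytoplasm with it while it matures. In adult mice the alpha chains come from a pair of neighbouring genes, and in the C57BL strains the beta chains come from the paralogs *Hbb-bs* and *Hbb-bt*. The balance of alpha and beta chains matters to the cell, because unpaired chains precipitate and damage it, as in the thalassemias.

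The study removed site-1 protease (S1P), a Golgi protease encoded by *Mbtps1* that activates membrane-bound transcription factors, from cells of the Osterix lineage. Bone marrow cells (BMCs) came from the hind- and forelimbs of a WT and an S1P Cko mouse, both of strain C57BL6/J and 21 days old. In the study the WT carries the floxed *Mbtps1* allele without Cre, and the Cko carries the same floxed exon together with the *Osx1-GFP::Cre* transgene, whose promoter is active in osteoblast precursors and, according to the study, probably in some hematopoietic cells as well. Red blood cells were removed before droplet-based Sc-RNA-Seq, so the erythroid cells examined here are the nucleated precursors and any reticulocytes left behind.

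With 1 library per genotype, nothing in these data measures the spread between mice. A difference between WT and Cko cannot be told apart from a difference between these 2 animals or between the 2 library preparations, and no test between genotypes was made. Intervals are exact 95% intervals and cover counting error only. The WT library held 6287 barcodes with 56382459 transcript counts (unique molecular identifiers, UMIs), and the Cko library held 3670 barcodes with 34447224 UMIs. After 16 and 8 barcodes with fewer than 200 detected genes were set aside, the median cell had 6977 UMIs in the WT and 7440 UMIs in the Cko. The libraries shared 28 barcodes. *Mbtps1* gave 1798 UMIs in the WT (31.9 counts per 1000000 UMIs, CPM) and 1073 UMIs in the Cko (31.1 CPM), but reads from the 3′ end lie outside the deleted exon and check nothing about the deletion.

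The members of each pair are nearly identical, which limits how far their counts can be separated. *Hba-a1* (ENSMUSG00000069919) lies on the plus strand at chr11:32283511-32284465 of GRCm38, and *Hba-a2* (ENSMUSG00000069917) lies downstream of it at chr11:32296489-32297298. *Hbb-bs* (ENSMUSG00000052305) and *Hbb-bt* (ENSMUSG00000073940) lie on the minus strand at chr7:103826534-103828096 and chr7:103812524-103813996. Each gene has 3 exons. The alpha coding sequences of 429 bases differ by C381T alone and the beta coding sequences of 444 bases by C417T alone, with positions counted from 1 at the start codon, the base of *Hba-a1* or *Hbb-bs* given first, and both differences in the last position of a codon. The stretches around these bases are shown because the paralog counts rest on them, and the capital marks the base that differs.
Hba-a1: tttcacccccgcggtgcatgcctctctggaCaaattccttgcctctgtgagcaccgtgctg
Hba-a2: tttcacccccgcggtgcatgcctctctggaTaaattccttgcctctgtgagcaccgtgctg
Hbb-bs: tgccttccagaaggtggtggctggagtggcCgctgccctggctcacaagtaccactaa
Hbb-bt: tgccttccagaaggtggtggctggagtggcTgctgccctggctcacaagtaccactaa

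The alpha paralogs stayed identical past the stop codon, over all 74 bases of 3′ untranslated region that the annotation gives both genes. The beta paralogs did not, matching at 46 of 131 bases (35.1%) when compared from the stop codon without gaps. An inserted or deleted base lowers this count. A read of 98 bases placed anywhere in the last 300 bases of the transcript was unique to its gene in 98 of 203 positions for *Hba-a1* (48.3%) and in 114 of 203 positions for *Hba-a2* (56.2%). All 98 of the *Hba-a1* positions cover the single differing base, and 16 further *Hba-a2* positions only run past the annotated end of *Hba-a1*. For *Hbb-bs* and *Hbb-bt* 159 (78.3%) and 160 (78.8%) of 203 positions were unique. The share of *Hba-a1* among alpha UMIs thus describes the reads that cross a single base, and the ratio of alpha to beta UMIs is a ratio of assigned counts and not of molecules. Both libraries were prepared with the same kit.

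The promoters were read from RefSeq (GRCm38.p6), since the 4 genes are all abundant in the erythroid-like cells described below. The 150 bases before the RefSeq start of transcription follow. The GENCODE bounds given above reach further upstream, so that the *Hba-a1* and *Hbb-bs* stretches lie within them and that of *Hbb-bt* lies partly within them. They are written on the coding strand, with the letters TATAA on that strand and CCAAT and CACCC on either strand in capitals.
Hba-a1 (chr11:32283522-32283671, plus strand): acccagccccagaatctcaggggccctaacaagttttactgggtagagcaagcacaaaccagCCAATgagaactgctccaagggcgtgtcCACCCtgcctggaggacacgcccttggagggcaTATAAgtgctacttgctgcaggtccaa
Hbb-bs (chr7:103827929-103828078, minus strand): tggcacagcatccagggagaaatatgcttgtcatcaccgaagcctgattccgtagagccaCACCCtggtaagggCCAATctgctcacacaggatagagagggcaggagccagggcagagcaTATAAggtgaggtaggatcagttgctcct
Hbb-bt (chr7:103813924-103814073, minus strand): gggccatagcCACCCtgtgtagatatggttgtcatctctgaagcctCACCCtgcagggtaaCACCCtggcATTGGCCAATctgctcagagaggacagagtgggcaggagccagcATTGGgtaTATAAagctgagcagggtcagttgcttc

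The *Hba-a2* promoter (chr11:32296342-32296491) matched that of *Hba-a1* at all 247 bases compared, with its start of transcription annotated 3 bases further on. The *Hbb-bs* and *Hbb-bt* promoters matched at 127 of 249 bases (51.0%). These comparisons used a single shift without gaps, so an inserted or deleted base lowers the count, and identity with gaps allowed was not measured. Over the 250 bases before the start, all 4 genes held the TATAA of the TATA box, the letters CCAAT, the letters CACCC that KLF factors bind, and the GATAA core of GATA factor sites. Each motif alone is common among the 32851 promoters of the RefSeq table, where TATAA was found in 16.0%, CCAAT in 33.8%, CACCC in 52.0% and GATAA in 22.6%. All 4 motifs together were found in 218 promoters (0.664%). CCAAT and CACCC were counted on both strands, as was GATAA, and a match is a stretch of letters and not a bound site. *Hbb-bt* had 3 CACCC and 3 CCAAT matches, whereas *Hbb-bs* had 1 of each.

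Erythroid-like cells were found by clustering both libraries together with the 4 globins and the related gene *Hbq1b* left out. All 16 other erythroid markers were detected in them in each library, but the same markers had named the clusters. The cluster poorest in globin (722 WT and 118 Cko cells, medians of 0.364% and 0.066%) was named from 5 of the 16. With the Cko clustered alone, 219 cells led by *Mt2* and *Car1* were named stem and progenitor. There were 3480 erythroid-like cells in the WT (55.5% of cells) and 566 in the Cko (15.5%). Neutrophil markers summed to 6148 CPM in WT and 8058 CPM in Cko erythroid-like cells, against 480922 CPM and 478575 CPM in neutrophil-like cells, and their part in the results below was not tested.

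Each of the 4 globins was among the most abundant transcripts of the erythroid-like cells. In the WT cells *Hba-a1* reached 65294 CPM, *Hba-a2* 35663 CPM, *Hbb-bs* 117375 CPM and *Hbb-bt* 41091 CPM. In the Cko cells the levels were 75301 CPM, 33172 CPM, 138598 CPM and 40867 CPM in the same order. *Hbb-bs* was thus the highest and *Hba-a1* the next in both libraries. Divided by transcript length, *Hbb-bs* stood at 186903 CPM per kb in the WT, *Hba-a1* at 93411, *Hba-a2* at 64373 and *Hbb-bt* at 58451. Counts of 3′ ends do not grow with the length of a transcript, so no order of *Hba-a2* and *Hbb-bt* was read from either scale.

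Individual cells spanned the whole range from almost no globin to almost nothing else. *Hbb-bs* ran from 3 to 5307 UMIs per WT cell, with a median of 1180, and from 1 to 6179 UMIs per Cko cell, with a median of 1865. *Hba-a1* had medians of 659 (0 to 2648) and 1007 (0 to 2938) UMIs. The minor paralogs had lower medians, at 288.5 (WT) and 379.5 (Cko) UMIs for *Hba-a2* and 398 and 548 UMIs for *Hbb-bt*. In the median erythroid-like cell the 4 genes together took 42.9% of UMIs in the WT (quartiles 4.27 and 69.4) and 51.6% in the Cko (5.19 and 74.6), so the ranges of the 2 libraries overlapped almost completely.

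To follow the genes along maturation, the erythroid-like cells were ordered by this hemoglobin fraction, the percent of a cell's UMIs that came from the 4 globins. The fraction rose with an order of the same cells built without globins (rank correlation 0.93 over 3169 WT and 0.89 over 464 Cko cells, given as a description since the cells share a library). From under 0.5% to over 60%, the WT bins held 438, 252, 412, 430, 549 and 1399 cells. The Cko bins held 107, 17, 35, 53, 120 and 234 cells, and its bins between 0.5 and 30% are thin. Over 60% lay 40.2% of WT (38.6 to 41.9) and 41.3% of Cko (37.3 to 45.5) erythroid-like cells. The share between 0.5 and 2% was 7.24% (6.40 to 8.15) in the WT and 3.004% (1.76 to 4.77) in the Cko.

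The alpha paralogs changed their proportion along this course. *Hba-a1* made up 79.9% of alpha UMIs in WT cells with 0.5 to 2% globin (79.3 to 80.4) and 81.1% (80.9 to 81.4) at 2 to 10%. It then fell to 75.7% at 10 to 30%, 69.7% at 30 to 60% and 61.0% (61.0 to 61.1) over 60%. The Cko cells followed the same descent, with 81.5% (79.9 to 83.1), 82.7%, 79.3%, 74.7% and 65.7% (65.6 to 65.9). *Hba-a2* therefore gained on *Hba-a1* as the cells filled with globin. Both were higher in each later bin, which follows largely from bins cut on the sum of the 4 genes. In WT cells *Hba-a1* went from 15603 to 178114 CPM between the 2 to 10% bin and the last, and *Hba-a2* from 3626 to 113773 CPM. From 2% upwards *Hba-a1* had the higher share in the Cko, by an amount above counting error in each of those 4 bins.

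The beta paralogs moved the other way. *Hbb-bs* made up 60.6% of beta UMIs at 0.5 to 2% globin in the WT (59.99 to 61.2), followed by 66.8%, 70.8%, 72.9% and 75.3% (75.3 to 75.4). In the Cko it went from 62.2% (60.5 to 63.9) through 66.8%, 72.3% and 76.1% to 78.6% (78.5 to 78.7). Among these bins *Hbb-bt* thus held its largest share of beta at 0.5 to 2% and its smallest over 60%. The shares of the libraries overlapped within counting error at 0.5 to 2% and at 2 to 10%, and that of the Cko was higher above 10%.

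**Figure D1:**
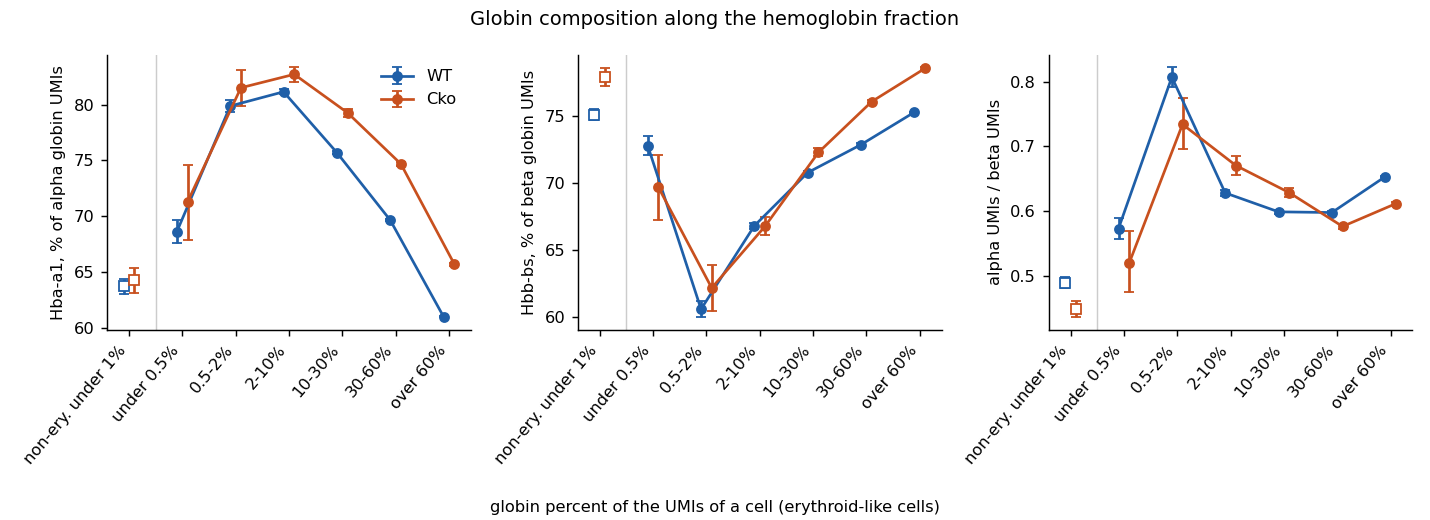
*Hba-a1* as a percent of alpha UMIs, *Hbb-bs* as a percent of beta UMIs and the alpha-to-beta UMI ratio (vertical axes) in the 6 bins of globin percent of UMIs (horizontal axis), pooled over the erythroid-like cells of the WT and Cko library, with open squares for non-erythroid cells under 1% globin and bars for 95% counting intervals. Above 2% globin the *Hba-a1* share fell and the *Hbb-bs* share rose in both libraries, and the ratio stayed between 0.577 and 0.671.

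The ratio of alpha to beta UMIs changed less than either paralog share. Over all erythroid-like cells it was 0.637 (0.636 to 0.638) in the WT and 0.604 (0.603 to 0.606) in the Cko, and divided by transcript length 0.643 and 0.601. In the WT it was highest at 0.5 to 2% globin, at 0.807 (0.792 to 0.822), then 0.628, 0.599, 0.598 and 0.653 in the later bins. In the Cko it was 0.734 (0.695 to 0.775) at 0.5 to 2%, then 0.671, 0.629, 0.577 and 0.612. Both libraries therefore had the most alpha relative to beta in the earliest globin-bearing cells and a higher value over 60% than at 30 to 60%. The Cko had the higher ratio at 2 to 10% and 10 to 30% and the lower ratio at 0.5 to 2%, 30 to 60% and over 60%, each beyond counting error. These intervals leave out the spread between cells. At 0.5 to 2% the alpha share had a standard deviation over WT cells of 9.15 percentage points, where counting gives 4.77, and the Cko bin held 17 cells.

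Cells under 0.5% globin stand outside this order. Their ratio of alpha to beta was 0.573 (WT) and 0.520 (Cko). Their *Hba-a1* share was 68.6% and 71.3%, and both measures were nearer to those of the bin over 60% than the bin at 0.5 to 2% was. Their median globin fraction was 0.262% in the WT and 0.060% in the Cko, below the medians of 0.308% and 0.082% in cells that are not erythroid. They were also deeper, with medians of 18199.5 (WT) and 22185 (Cko) UMIs against 6868 and 6933. Counted in UMIs per cell they held more globin, with *Hbb-bs* medians of 23 and 7 against 11 and 4. When the globin found in such non-erythroid cells was subtracted, the WT bin of 0.5 to 2% lost 26.5% of its globin and moved to a ratio of 0.958, an *Hba-a1* share of 83.8% and an *Hbb-bs* share of 53.7%. The Cko bin lost 6.47% and moved to 0.758, 82.4% and 60.9%. The amount subtracted was a fixed percent of UMIs, yet the WT bin had a median of 16492.5 UMIs per cell and the WT background cells 6734. Background globin did not grow in proportion to depth, with medians of 20 globin UMIs of 5637 in WT B cell-like and 28 of 11339 in granulocyte-monocyte progenitor-like cells. The values after subtraction may thus be overcorrected, and by how much was not tested. From 2% upwards the subtraction moved no share by more than a percentage point.

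The same course was seen in single cells with at least 20 alpha or beta UMIs. Within WT cells the median *Hba-a1* share was 82.2% at 2 to 10% globin (quartiles 78.2 and 85.0) and 61.3% over 60% (58.5 and 64.5). Within Cko cells it was 83.3% (78.8 and 86.2) and 65.5% (61.8 and 70.1). The quartile ranges of these 2 bins did not overlap in either library. *Hba-a1* gave most of the alpha UMIs in 3168 of 3173 WT and 466 of 466 Cko cells, so the fall of its share never brought *Hba-a2* to the majority in more than 5 cells.

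*Hbb-bs* gave most of the beta UMIs in 3284 of 3388 WT and 457 of 471 Cko cells. The exceptions were concentrated early. At 0.5 to 2% globin *Hbb-bs* was the major paralog in 186 of 237 WT cells (78.5%) and 10 of 17 Cko cells (58.8%), and above 30% it was so in every cell of both libraries. Cells of the same bin also differed most there. The *Hbb-bs* share had a standard deviation over WT cells of 14.6 percentage points at 0.5 to 2%, where counting error alone gives 5.89, and of 3.93 over 60%, where counting error gives 0.886.

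Alpha UMIs outnumbered beta UMIs in 108 of 3453 WT and 15 of 489 Cko cells. Of the 108 WT cells, 61 had 0.5 to 2% globin. Over 60% the per-cell ratio was narrow, with quartiles of 0.591 and 0.713 in the WT and 0.567 and 0.664 in the Cko, though the spread of the alpha share, 3.31 and 2.85 percentage points, was still above the 0.783 and 0.682 that counting gives.

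**Figure D2:**
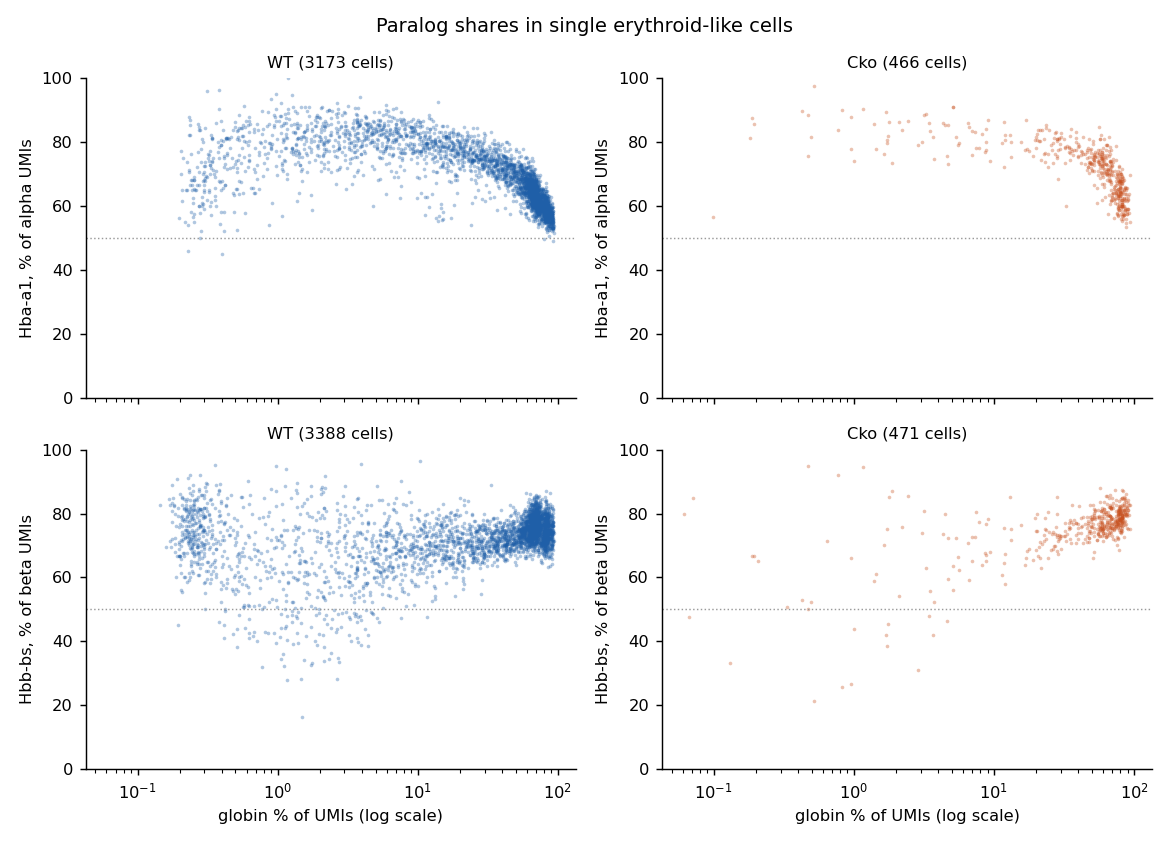
*Hba-a1* percent of alpha UMIs and *Hbb-bs* percent of beta UMIs (vertical axes) against globin percent of UMIs (horizontal log axis), with a dotted line where the paralogs are equal and a point for each erythroid-like cell with at least 20 UMIs of the pair, in the WT and Cko library. The *Hba-a1* cloud descends and the *Hbb-bs* cloud narrows and rises as globin accumulates.

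As a description over cells, the rank correlation of the globin fraction with the *Hba-a1* share was -0.81 in the WT (3169 cells) and -0.85 in the Cko (464 cells). With the *Hbb-bs* share it was 0.41 and 0.56, and with the alpha-to-beta ratio 0.07 and -0.05. The globin fraction is a share of the same UMIs, and the total of a cell falls along maturation, from a median of 12985 UMIs at 2 to 10% to 5538 over 60% in the WT. The total itself correlated with the *Hba-a1* share at 0.49 and 0.52. Against the order built without globins the *Hba-a1* share had correlations of -0.74 and -0.80. With that order cut into 5 parts, the *Hba-a1* share was 72.7%, 76.9%, 69.3%, 62.8% and 59.9% in the WT and 80.4%, 80.3%, 75.2%, 69.9% and 64.7% in the Cko. It fell from part 2 onwards in both, so the descent did not need globin on the horizontal axis. Between parts 1 and 5 the *Hbb-bs* share went from 68.9% to 74.99% in WT cells and from 66.6% to 78.3% in Cko cells.

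Between the libraries, the erythroid-like cells carried similar levels of all 4 genes per cell total. The Cko-to-WT ratio of CPM was 1.15 for *Hba-a1* (1.15 to 1.16), 0.930 for *Hba-a2* (0.926 to 0.934), 1.18 for *Hbb-bs* (1.18 to 1.18) and 0.995 for *Hbb-bt* (0.991 to 0.999). None of the 4 passed a 1.5-fold difference, a size that 13.8% of the 5206 genes compared did pass, with a median ratio over all genes of 0.926. *Hba-a1* and *Hbb-bs* stayed above 1 per UMI other than the globins, at 1.20 and 1.23, while *Hba-a2* stayed below at 0.967 and *Hbb-bt* crossed to 1.03. Over these cells *Hba-a1* made up 64.7% (WT) and 69.4% (Cko) of alpha, while *Hbb-bs* made up 74.1% and 77.2% of beta. These levels depend on which early cells are counted as erythroid. When each library was clustered on its own, 451 Cko cells instead of 566 were erythroid-like, with 3 instead of 107 of them under 0.5% globin. The ratios became 1.97, 1.59, 2.02 and 1.69, all past 1.5-fold. So were most genes, 3330 of the 5089 then compared.

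**Figure D3:**
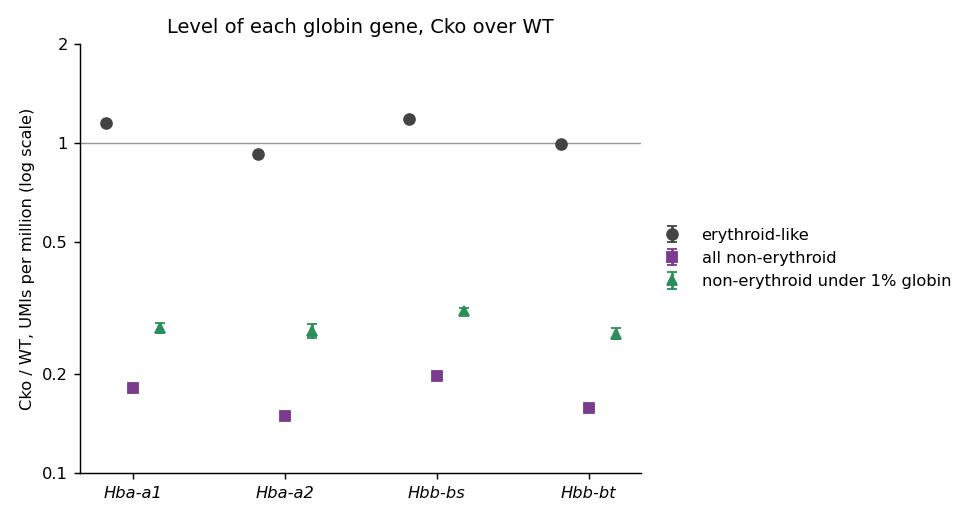
Cko-to-WT ratio of CPM (log axis) for each globin gene in erythroid-like cells, in all non-erythroid cells and in non-erythroid cells under 1% globin, with bars for 95% counting intervals that are mostly narrower than the points. The 4 genes lie between 0.930 and 1.18 in erythroid-like cells and between 0.149 and 0.310 in the other groups.

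Globin UMIs were also found in cells of every other class. The 2791 non-erythroid WT cells had 2.89% of their UMIs from the 4 genes, and the 3096 Cko cells 0.521%. The medians per cell were lower, at 0.308% and 0.082%, because a few cells held much of the total. Among WT classes the median was 0.355% in stromal-like cells, 0.334% in monocyte-like, 0.328% in neutrophil-like, 0.324% in B cell-like, 0.313% in T/NK-like and 0.252% in granulocyte-monocyte progenitor-like cells. In the Cko the same classes had 0.096%, 0.099%, 0.091%, 0.080%, 0.093% and 0.061%. The quartile ranges of neighbours in this order overlapped in each library, so these classes carried much the same low share within a library, and each was higher in the WT library than in the Cko library.

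Macrophage-like cells were the exception. Their median was 16.2% of UMIs in the WT (53 cells, 0.290 to 84.0), and 39 of the 53 had at least 1% globin. In the Cko the median was 0.185% and 2 of only 9 cells passed 1%. The alpha-to-beta ratio of the WT macrophage-like cells, 0.609, and their *Hba-a1* share of 62.2% lay between those of erythroid-like cells at 30 to 60% and over 60% globin. This was not particular to them. WT B cell-like cells (0.623 and 63.4%) and all non-erythroid WT cells with at least 1% globin (0.631 and 63.1%) also lay there. Marrow macrophages surround and engulf erythroid precursors and their nuclei, and globin RNA taken up, made by or stuck to such a cell cannot be told apart in these counts.

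**Figure D4:**
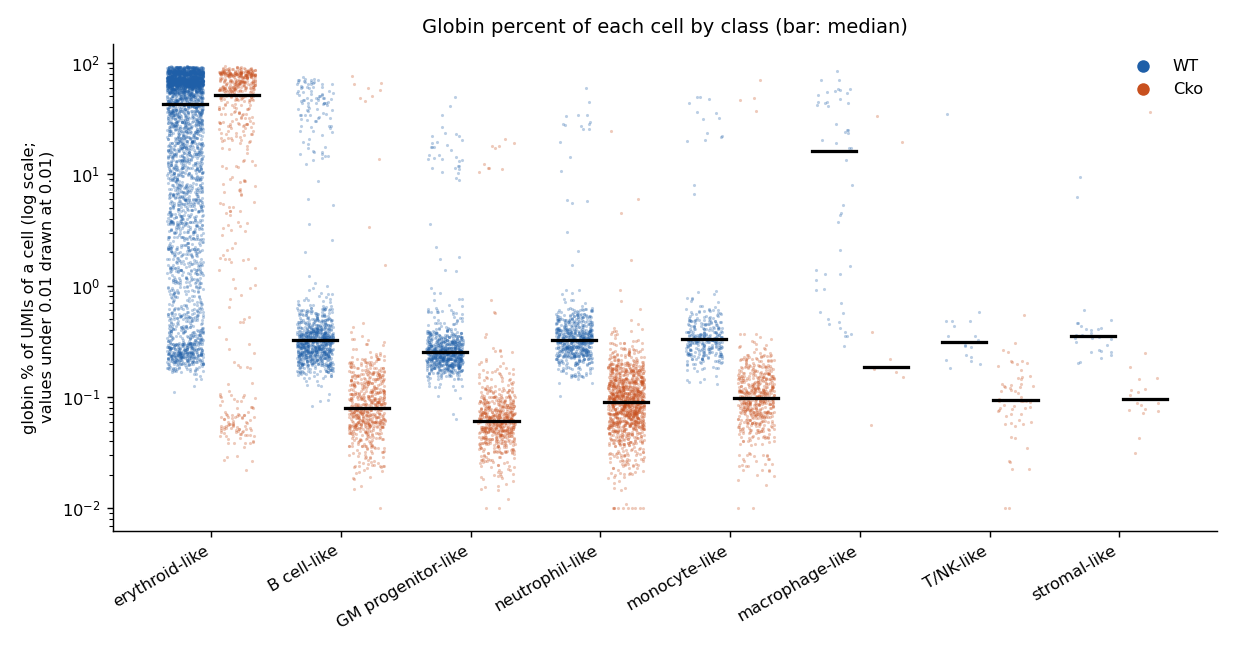
Globin percent of UMIs per cell (log axis) by cell class in the WT and Cko library, with a point per cell, values under 0.01 drawn at 0.01 and a bar at the median. The non-erythroid classes other than macrophage-like cells sit at medians of 0.252 to 0.355% in the WT and 0.061 to 0.099% in the Cko, far below erythroid-like cells at 42.9% and 51.6%.

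At least 1% globin was found in 226 of 2791 non-erythroid WT cells (8.10%, 7.11 to 9.17) and in 32 of 3096 Cko cells (1.03%, 0.708 to 1.46). These cells had a median of 80 (WT) and 106 (Cko) UMIs of the 16 other erythroid markers, against 3 and 1 in cells under 1%. Doublets were called in 31 of the 226 (13.7%) and 5 of the 32 (15.6%), against 0.624% and 0.653% of the cells under 1%. Globin in these cells therefore came with other erythroid transcripts, and what share of them is doublets was not tested beyond these calls. B cell-like cells were the largest group among them, with 109 of 939 in the WT and 11 of 625 in the Cko.

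In the non-erythroid cells under 1% globin, each of the 4 genes was lower in the Cko. *Hba-a1* stood at 605 CPM in the WT and 167 CPM in the Cko, and *Hba-a2* at 344 and 92.7 CPM. *Hbb-bs* stood at 1457 and 451 CPM, and *Hbb-bt* at 482 and 127 CPM. The WT level was 3.63, 3.71, 3.23 and 3.78 times that of the Cko. All 4 were lower past 1.5-fold, as were 8.03% of the 5768 genes compared, and they ranked 65, 62, 74 and 59 from the lowest Cko-to-WT ratio. Of the 16 other erythroid markers 15 were lower in the same cells, 13 of them past 1.5-fold, and the median WT-to-Cko ratio of the 16 was 3.45. Thus the globins moved with the erythroid markers as a group, in a library in which 16.7% of all UMIs were globin against 6.36%, and the part of free erythroid RNA in these values was not tested further. Over all non-erythroid cells the Cko-to-WT ratios were 0.180, 0.149, 0.197 and 0.157, with 9.30% of 5809 genes lower past 1.5-fold.

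The low level of globin in these cells held less alpha than erythroid cells did. Under 1% globin the alpha-to-beta ratio was 0.490 (0.481 to 0.498) in the WT and 0.449 (0.436 to 0.462) in the Cko, below every bin of erythroid-like cells in the same library. The *Hba-a1* share was 63.7% (63.1 to 64.4) and 64.3% (63.1 to 65.4), so the libraries overlapped, whereas their erythroid-like cells stood at 64.7% and 69.4%. The *Hbb-bs* share was 75.1% (74.7 to 75.6) and 78.0% (77.3 to 78.6), beside 74.1% and 77.2% in the erythroid-like cells. With no erythroid marker UMI at all, 228 WT cells still had 0.341% globin and 971 Cko cells 0.103%.

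Detection followed the same order. No WT non-erythroid cell lacked a globin UMI, and 16 of 3096 Cko cells did. After each cell was thinned to 3000 UMIs, which left out 4 WT cells, *Hbb-bs* was seen in 98.9% of WT and 75.3% of Cko non-erythroid cells, *Hba-a1* in 85.9% and 43.6%, *Hbb-bt* in 77.6% and 33.5%, and *Hba-a2* in 68.8% and 27.4%. Before thinning *Hba-a1* was seen in 97.9% and 71.3%. Every class carried these UMIs, and a UMI of a globin in a cell does not by itself mark that cell as expressing it.

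Other listed members of the globin family gave far fewer UMIs than the 4 genes. The theta-like gene *Hbq1b* gave 2584 UMIs in WT (76.8 CPM) and 665 UMIs in Cko erythroid-like cells (94.9 CPM), a Cko-to-WT ratio of 1.24 (1.13 to 1.35). Per 10000 UMIs other than the 4 globins it rose to 7.22 in the WT and 10.6 in the Cko over 60% globin, from 0.0112 and 0 under 0.5%. The embryonic gene *Hba-x* was listed for the WT alone, with 24 UMIs in these cells.

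Finally, the genes that make hemoglobin work were examined along the same bins, from a list of 29 that covers heme synthesis, carriers for heme precursors and iron, regulators of globin transcription, heme sensing and breakdown, and a chaperone. The chaperone gene *Ahsp* was listed in neither library and *Bach1* in the WT alone, so neither was compared. The other 27 were listed in both libraries, and 22 were higher over 60% globin than under 0.5% in both, per UMI other than the globins. Of all 5202 genes compared in the same way, the 4 globins left out, 29.9% were. WT cells had a median of 18199.5 UMIs under 0.5% and 5538 over 60%, where globins held 73.9% of the summed UMIs. A gene can thus be higher per UMI other than the globins and not be higher per cell, and levels per cell were not compared. *Alas2*, the first enzyme of erythroid heme synthesis, went from 0.139 to 84.5 per 10000 such UMIs in the WT and from 0.0366 to 125 in the Cko. *Fech*, which inserts iron into heme, went from 0.810 to 29.8 and from 0.590 to 29.4. The mitochondrial iron carrier gene *Slc25a37* went from 0.154 to 22.5 and from 0.130 to 17.02. The regulators of globin transcription were mixed. The erythroid factor *Klf1* went from 4.28 to 13.9 and from 3.18 to 12.6, and *Gata1* from 1.44 to 2.98 and from 1.07 to 3.52. Across erythroid-like cells the rank correlation with the globins, both per UMI other than the globins, was weak for *Klf1* (0.13 and 0.24). For *Gata1* it was negative (-0.23 and -0.10). *Nfe2* went from 0.389 to 7.28 and from 0.606 to 10.3, and *Sox6* from 0.0425 to 2.49 and from 0.0285 to 2.11, whereas *Myb*, *Ldb1* and *Bcl11a* were lower over 60% in both. The remaining one of the 4 genes lower in both was *Tmem14c*, a porphyrin transporter, which peaked at 10 to 30% with 27.5 (WT) and 25.5 (Cko) and stood at 6.22 and 4.98 over 60%.

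**Figure D5:**
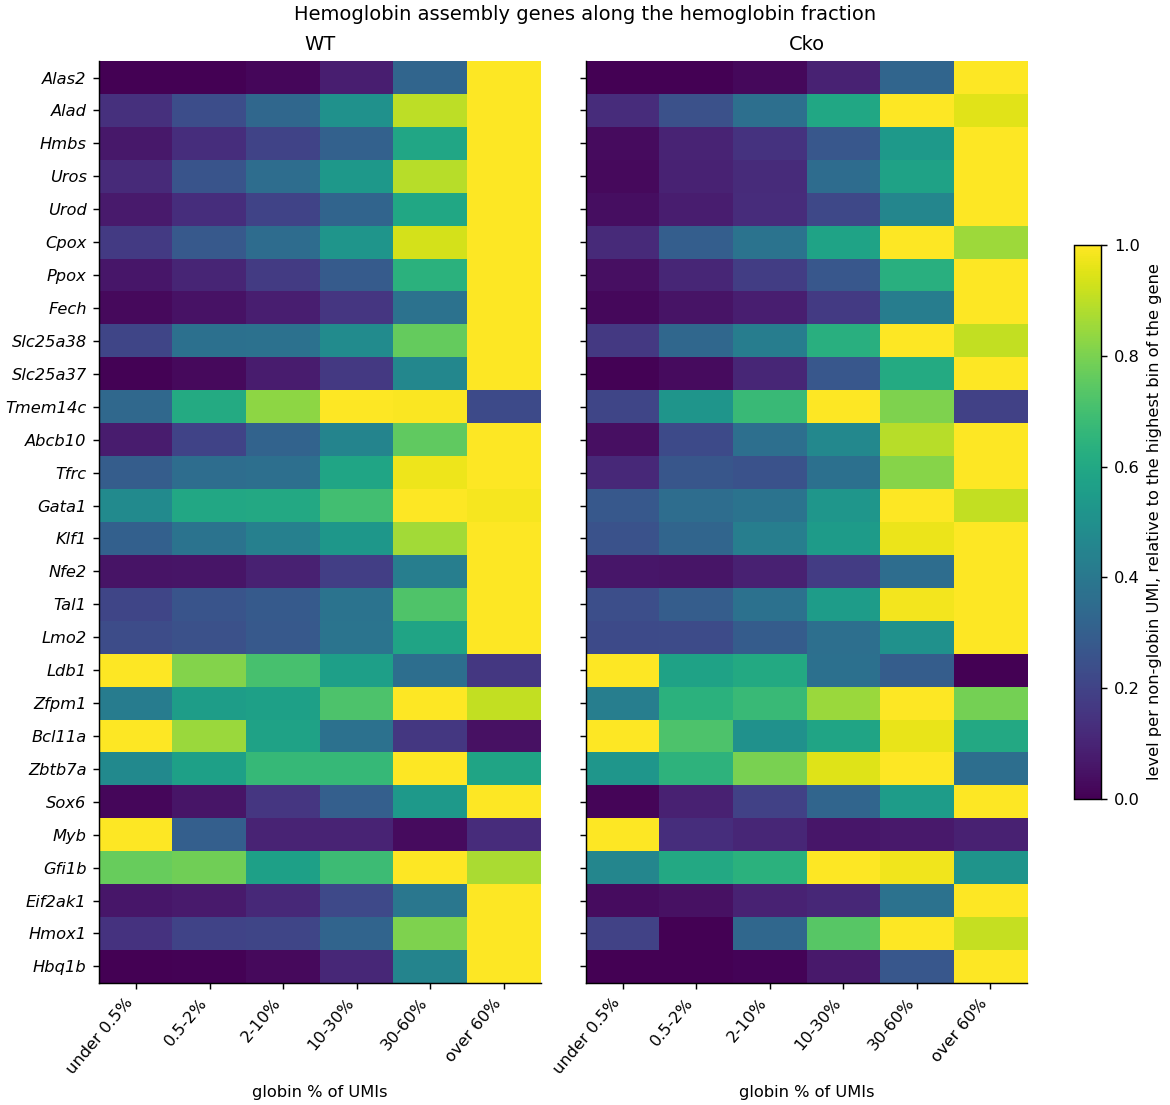
Level of hemoglobin assembly genes (vertical axis) in the 6 bins of globin percent of UMIs (horizontal axis) per UMI other than the 4 globins, scaled to the highest bin of each gene, in the WT and Cko library. Heme synthesis genes such as *Alas2* and *Fech* are highest over 60%, while *Myb* and *Ldb1* are highest under 0.5%.

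Between the libraries 3 of the 27 genes were higher past 1.5-fold in Cko erythroid-like cells, and 2 were lower, beside 7.70% higher and 6.13% lower among all genes. The higher genes were *Tfrc*, the transferrin receptor (1.99, 1.89 to 2.10), *Alas2* (1.53, 1.49 to 1.57) and *Myb*, a factor of immature cells (1.84). The lower genes were *Tmem14c* (0.628) and *Abcb10*, a mitochondrial transporter (0.508).

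The genes most like the globins across erythroid-like cells were ranked over 4799 genes, both sides taken per UMI other than the globins, by the smaller of the 2 libraries' rank correlations. Among the first 10 were *Alas2* (0.96 in the WT and 0.97 in the Cko), *Gpx1*, *Fech*, *Ubb*, *Prdx2*, *Ube2l6*, *Mkrn1* and *Oaz1* (0.82 and 0.85). *Gpx1* and *Prdx2* encode peroxidases, and *Ubb* and *Ube2l6* ubiquitin and an enzyme that conjugates ubiquitin-like proteins. The correlations rest on cells of 1 library each that share a denominator, and they are given as a description.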

How the data were processed

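Droplet Sc-RNA-Seq (Chromium Single Cell 3′ v2 kit) was done by the authors on BMCs of 1 WT and 1 Cko mouse. The deposited tables hold raw UMI counts per gene and barcode, made with Cell Ranger on GRCm38 according to the submitters' processing notes, with the version and the handling of reads that match both paralogs not given in the sources used here. Genes below 4 UMIs in all cells are not listed. Barcodes under 200 genes were removed, and doublets were called with scanpy 1.11.5 (122 WT and 38 Cko) but kept. Cells were clustered jointly with Seurat 5.3.0 (R 4.3.3) without the 4 globins and *Hbq1b*, and named from marker lists, 16 of the markers erythroid. Counts were summed per library, with exact binomial, Poisson and conditional 95% intervals from scipy 1.17.1. A cell entered a per-cell share or ratio with at least 20 UMIs of the genes concerned. Genes needed 100 UMIs over both libraries to be compared, and 1.5-fold was the size counted. Named were the 4 globins, the other globin genes listed, genes of the assembly list that passed 1.5-fold or illustrate a role, and the 10 genes most alike, some of which are not reported here. The globin subtraction was chosen after the values were seen. The intervals were tested on simulated counts. The members and lists were chosen with earlier results of these data known. Coordinates and transcripts are from GENCODE vM21, promoters from RefSeq.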

Additional observations from a re-analysis of the deposited data

Results flagged for a closer look

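Barcodes with fewer than 200 genes, which entered above only the totals over all barcodes of a library, held globin at a high level. In the WT 15 of 16 such barcodes had at least 10% globin, and the 4 genes gave 92.2% of their summed UMIs (89.7 to 93.5 per barcode). In the Cko 7 of 8 barcodes did, with 94.0% of their UMIs (91.5 to 95.5). The alpha-to-beta ratio in these barcodes was 0.742 in the WT and 0.585 in the Cko, with *Hba-a1* at 56.2% and 59.6% of alpha and *Hbb-bs* at 75.8% and 80.9% of beta. In both libraries the *Hba-a1* share was below and the *Hbb-bs* share above that of the erythroid-like bin over 60%, while the alpha-to-beta ratio was above it in the WT and below it in the Cko. The remaining barcode had 0.451% globin in the WT and 0.0985% in the Cko.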

How the results depend on the processing

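Of the values recomputed under other settings, 31 stayed within their limit (counting error, or 1.5 times for the number of genes past 1.5-fold), 38 did not and none changed sign. Values are given as log2 alpha to beta (-0.65 WT, -0.73 Cko), *Hba-a1* percent of alpha (64.7, 69.4) and *Hbb-bs* percent of beta (74.1, 77.2) in erythroid-like cells, and log2 Cko to WT of the globin share in erythroid-like (0.15) and non-erythroid (-2.47) cells. With at least 500 genes per barcode they became -0.70 and -0.74, 66.9 and 71.2, 74.0 and 76.5, and 0.23 and -2.26. With per-cell medians they became -0.66 and -0.72, 67.8 and 72.9, 73.3 and 76.7, and 0.27 and -1.91. With every barcode of at least 10% globin taken as erythroid, the Cko ratio was -0.73, *Hba-a1* 63.9 and 68.9, and *Hbb-bs* 74.4 and 77.6. Subtracting the globin of B cell-like cells gave -0.64, 65.0 and 73.9 in the WT, and that of cells under 1% globin -0.65. With each library clustered alone, Cko *Hbb-bs* was 77.3, the genotype ratios were 0.92 and -3.28, and 3330 of 5089 instead of 720 of 5206 genes passed 1.5-fold. With globins kept in the clustering the ratios were 0.16 and -3.33, without called doublets 0.21 and -2.61, and per UMI other than globin 0.21 and -2.51. Clusters without a name were left out of the non-erythroid cells. With globins kept this left 1516 WT and 1804 Cko cells instead of 2791 and 3096, so -3.33 compares another set of cells. For non-erythroid cells the ratio was -2.40 in B cell-like cells, -1.73 with no erythroid marker UMI and -1.79 under 1% globin. The cause was not tested. Cell number limits the Cko bins from 0.5 to 30%, with 17, 35 and 53 cells. No paired analysis was possible because each genotype has 1 library.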

Other observations

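Erythroid-like cells over 60% globin were split further, at 70, 80 and 90%, after the values above were seen. In the WT the *Hba-a1* share kept falling, from 64.2% through 61.0% and 58.3% to 56.0% in the 75 cells over 90%. In the Cko it went from 70.9% through 65.3% and 62.0% to 61.3%, the last from 8 cells. The alpha-to-beta ratio of the WT rose over the same bins from 0.5998 through 0.654 and 0.704 to 0.768 (0.763 to 0.772). In the Cko it went from 0.592 through 0.613 to 0.633 and was 0.581 (0.571 to 0.592) in the 8 cells over 90%. The *Hbb-bs* share of beta in the WT no longer rose there. It went from 75.8% (75.7 to 75.9) at 60 to 70% to 74.3% (74.1 to 74.4) over 90%. In the Cko it stayed between 77.9% and 80.4%. The difference between the libraries in these late bins was not tested.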
